A study of Mus musculus with 8 samples.

Results

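The cytosolic ribosomal proteins build the 2 subunits of the ribosome that translates nuclear-encoded mRNA. Their transcripts were followed here with 100 probe sets, of 22690 on the array, that represent 48 genes of 12394 with a probe set of a single symbol. Members were every probe set with a single gene symbol that begins with Rpl or Rps and a digit, or is Rpsa or Rplp0 to Rplp2, without the Rps6k kinases and without names ending in -ps. They fell into 41 probe sets of 22 large subunit genes, 50 of 20 small subunit genes, and 9 of 6 paralogs (Rpl3l, Rpl7l1, Rpl22l1, Rpl39l, Rps27l and Rps4l). The samples were 8 mouse hearts at embryonic day 10.5, 1 array per heart. The 4 hearts called WT were Dbh+/+, and the 4 called KO were Dbh-/-. Dbh encodes dopamine beta-hydroxylase, the enzyme that makes noradrenaline from dopamine, so the comparison asks how heart transcripts differ in embryos without it. The labels used here give no strain, sex or litter, but the sample titles carry an unexplained number, 541 for WT 3, WT 4, KO 3 and KO 4, 569 for WT 2, KO 1 and KO 2, and 570 for WT 1. The titles also carry an unexplained letter with a digit. The letter was L in all 4 hearts numbered 541 and R in the other 4, so number and letter cannot be told apart.

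As background, a ribosome needs its proteins in fixed proportions, and their genes are transcribed at high rates in growing tissue. Most of these mRNAs in vertebrates begin with a C followed by a run of pyrimidines, the 5′ terminal oligopyrimidine (TOP) motif, through which mTOR and Larp1 control their translation. Large subunit proteins carry the Rpl prefix and surround the peptidyl transferase centre, with Rplp0 as the base and Rplp2 as an arm of the stalk that recruits elongation factors. Small subunit proteins carry the Rps prefix and surround the site where codons are read. Paralogs such as Rpl22l1 and Rps27l are close relatives of a core protein and can take its place in some cells.

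The start sites are shown because the motif for which the family is known begins at the first base of the transcript, and a minority of the annotated starts carry it there. RefSeq promoter windows (GRCm38.p6) were at hand for 42 of the 48 genes, as 50 windows from 250 bases before to 50 after a start site. A C followed by at least 4 pyrimidines, exactly at the annotated first base, was present in 8 of the 50 windows (16%) and in 2.51% of all 32851 windows. These 8 are printed on the gene's strand, from 10 bases before the start to 20 bases of transcript, with the pyrimidine run in capitals.
Rpl14 (chr9:120571507-120571536, plus strand): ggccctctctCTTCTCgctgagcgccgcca
Rpl35 (chr2:39005112-39005141, minus strand): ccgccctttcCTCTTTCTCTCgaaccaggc
Rpl38 (chr11:114668570-114668599, plus strand): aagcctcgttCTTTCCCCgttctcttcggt
Rplp2 (chr7:141447641-141447670, plus strand): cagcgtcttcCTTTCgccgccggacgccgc
Rps10 (chr17:27635225-27635254, minus strand): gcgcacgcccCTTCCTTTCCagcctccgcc
Rps18 (chr17:33955646-33955675, minus strand): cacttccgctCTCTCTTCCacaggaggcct
Rps27 (chr3:90213629-90213658, minus strand): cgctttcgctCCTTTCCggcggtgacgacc
Rps6 (chr4:86857348-86857377, minus strand): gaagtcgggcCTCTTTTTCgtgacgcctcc

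For the other 42 windows the run was not at the annotated base, which says nothing of start sites other than the annotated one. Rplp0, Rpl13a and Rpl37a are among them and are shown because their signals recur in the results.
Rplp0 (chr5:115559457-115559486, plus strand): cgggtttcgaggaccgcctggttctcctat
Rpl13a (chr7:45128726-45128755, minus strand): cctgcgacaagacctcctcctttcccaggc
Rpl37a (chr1:72711250-72711279, plus strand): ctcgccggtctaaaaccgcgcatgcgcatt

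The letters CCGGAA, searched on both strands (TTCCGG on the other) and known as the core of ETS factor sites, were present in 28 of the 50 windows (56%) against 14.9% of all windows. Examples on the gene's strand, with the 6 letters in capitals, come from genes whose signals are described further on.
Rps10 (chr17:27635256-27635285, minus strand): gagccgcgcagcCCGGAAgagacgctgcgc
Rpl39 (chrX:37085181-37085210, minus strand): ctaatcgcgttcTTCCGGtcccggcctttc
Rpl41 (chr10:128549207-128549236, minus strand): ctagtaaggcagCCGGAAgtcgctgtctcg
Rpsa (chr9:120127567-120127596, plus strand): cgccccagctacTTCCGGcctggggtctgt

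AAGATGGC, searched on both strands, was present in 8% of member windows and 2.75% of all windows, and it overlapped CCGGAA in 1 member window. In Rps27 the pyrimidine run and TTCCGG shared bases. TATAAA between 40 and 16 bases before the start, on the gene's strand only, was present in 2% of member windows and in 1.99% of all windows. A match is a description of letters and not of a bound site.

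The values are the authors' MAS5 signals, a linear intensity per probe set, with a Present, Marginal or Absent detection call. The arrays called 65.2% to 71.6% of probe sets Present, and the signals had not been brought to a common scale. The main comparisons are therefore given as deposited and after quantile normalization. Genotype differences of single genes and lists given without a scale are as deposited. The single Dbh probe set was Absent in all 8 hearts, with signals of 0.222 to 10.9, and checks no genotype label. All 12 listed cardiomyocyte markers were Present in all 8 hearts, with summed signals of 28133 to 54802. Hearts WT 3, KO 3 and KO 4 stood apart in other markers. Their 7 measured neuron and neural crest markers summed to 1549, 1508 and 1473, against 80.2 to 259 in the other 5 hearts. Liver and endoderm markers summed to 10492 in WT 3 and to at most 173 elsewhere. In whole hearts, a smaller share of cells of a type and less RNA per cell cannot be told apart.

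The ribosomal protein mRNAs were detected throughout. A total of 91 of the 100 probe sets were Present in all 8 hearts, and 45 of the 48 genes had at least 1 such probe set. The genes without one were Rpl39 (its probe set Present in 6 hearts), the paralog Rpl39l, which in adult mice is known from the testis (5 hearts), and Rpl3l, a paralog known from adult skeletal and heart muscle (0 hearts). Rpl3l signals were 9.4 or lower, and the probe set was not tested. The other 6 probe sets that missed a Present call in some heart belonged to Rpl27a (1419799_at), Rps18 (1450390_x_at), Rps24 (1436500_at), Rps4x (1420303_x_at), Rps6 (1453466_at) and Rpsa (1416196_at). Each of these genes had another probe set Present in all 8 hearts. With a Present call required in at least 3 hearts, 95 probe sets of 47 genes were tested among 16292. Of these, 69 had a mean signal above 1000 over the 8 hearts, and 26 lay at or below that level. The nearest means on either side were 1126 and 791.

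As deposited, the signals of the family moved together from heart to heart. Relative to each probe set's mean over the 8 hearts on the log2(signal + 16) scale, the median member stood at 0.09, -0.11, 0.18 and -0.12 in WT 1 to WT 4. It stood at -0.21, 0.10, 0.31 and -0.23 in KO 1 to KO 4. All tested probe sets stood at 0.21, -0.05, 0.07 and -0.22 in the WT hearts and at -0.24, 0.24, 0.26 and -0.22 in the KO hearts. Both genotypes held hearts above and below the mean, and the members and the array as a whole had the same sign in every heart. After quantile normalization the member medians narrowed to -0.06, -0.05, 0.10 and -0.02 in WT 1 to WT 4. The KO medians were then -0.04, -0.03, 0.05 and 0.07. The highest values were those of WT 3, KO 4 and KO 3, all with the title number 541.

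**Figure D1:**
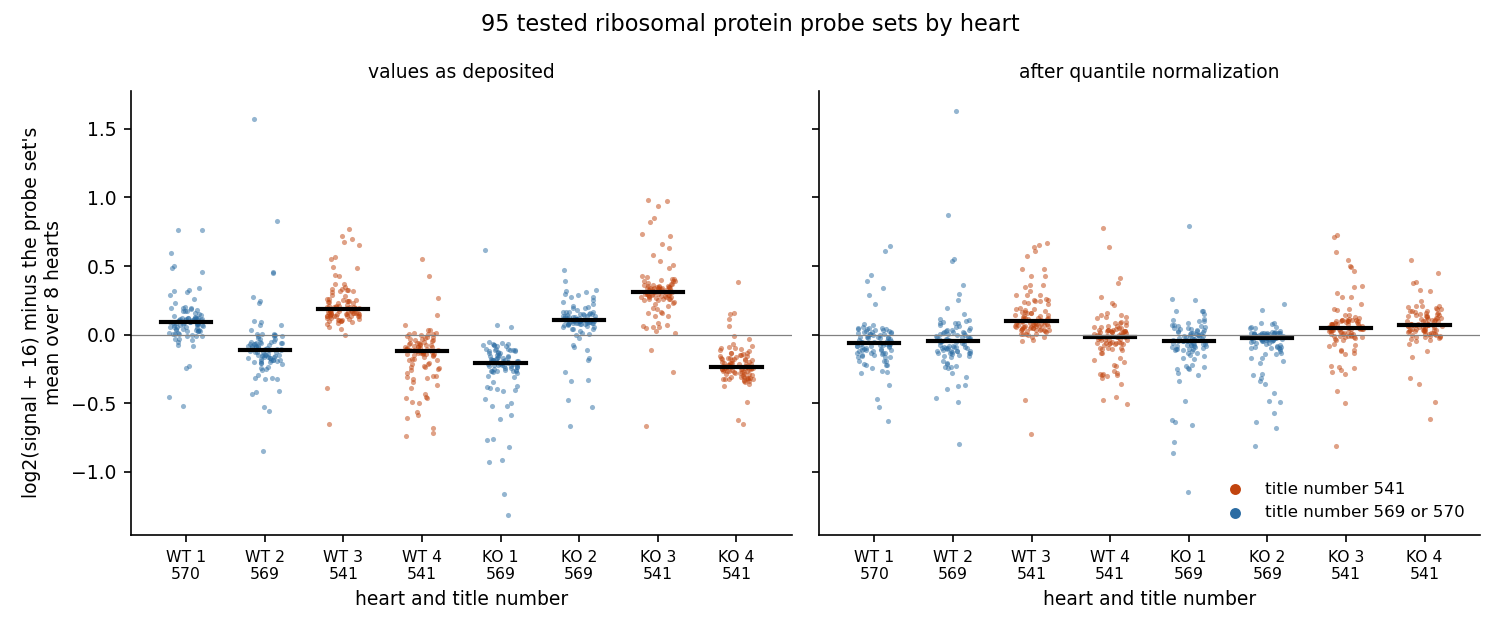
Each point is 1 of the 95 tested probe sets, plotted as its log2(signal + 16) in a heart minus its mean over the 8 hearts, as deposited (left) and after quantile normalization (right). Black bars are medians over the probe sets and colours give the title number. As deposited the medians run from -0.23 in KO 4 to 0.31 in KO 3, and after normalization from -0.06 in WT 1 to 0.10 in WT 3.

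The members with high signals had a lower median SD between hearts of a genotype than other probe sets of high signal, a difference that was not tested. For the 69 members with a mean signal above 1000, the median SD within a genotype was 0.227 log2 units as deposited and 0.0836 after quantile normalization. The 2085 other tested probe sets above the same level had median SDs of 0.305 and 0.159. Both sets share only this lower limit and were not matched for signal above it. Among members Present in all 8 hearts, the narrowest were Rps24 (1436064_x_at), with a range of 0.053 log2 units over the 8 normalized hearts, Rpl27a (1437729_at), with 0.078, and a second Rps24 probe set (1453362_x_at), with 0.094. Rps24 and Rpl27a are core proteins of the small and the large subunit. The widest were Rps27 (1460699_at), with 2.44, Rpl37a (1416218_x_at), with 1.76, and Rpl41 (1454639_x_at), with 1.59. The wide Rpl37a probe set was dim, with signals of 10.1 to 93.8. The gene's other probe sets had mean signals above 1000 and ranges of 0.376 and 0.228. All the narrowest probe sets named here had mean signals above 1000, and all the widest lay below that level. Rpl41 encodes the shortest ribosomal protein. A further Rpl41 probe set (1455578_x_at) read 2774 in KO 1 and 1481 to 2334 in the other hearts.

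No ribosomal protein mRNA was called different between Dbh-/- and Dbh+/+ hearts. By limma with Benjamini-Hochberg adjustment over 16292 probe sets, 0 of 95 members had an adjusted p under 0.05, as deposited and after quantile normalization. The background was the same, with 0% of all tested probe sets called on either scale. At an unadjusted p under 0.05 there were 1 member as deposited and 2 after normalization, against 1.33% and 2.14% of all tested probe sets. An unequal-variance test on the linear signals called 0 members and gave 0 with an unadjusted p under 0.05. Of the 100 members, 0 had a p under 0.05 by the authors' deposited table, where 1.24% of all probe sets did. The smallest of those p-values in the authors' deposited table was 0.135, for Rpsa (1416196_at).

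Over all 95 members the typical difference was close to zero, and its sign depended on the scale. The median log2 difference, KO minus WT, was -0.016 over the 95 members as deposited, with 41 above zero and 54 below, beside 0.008 over all tested probe sets, of which 52% were above zero. After quantile normalization it was 0.015, with 54 above and 41 below, beside -0.000488 for all, of which 49.9% were above zero. For the 69 members above a signal of 1000 the medians were -0.001 as deposited and 0.037 after normalization, with 34 and 48 above zero. All 2154 tested probe sets above 1000 had medians of -0.035 and -0.001. For the other 26 members the medians were -0.107 and -0.134, with 19 and 20 below zero. The split by signal was not tested. The size of difference that these hearts allow was also small for the strongly expressed members. The 95% confidence interval lay within 0.5 log2 units of zero for 59 of the 69 members above a signal of 1000 as deposited and for 67 of 69 after normalization. The largest difference among them in either direction was 0.21 as deposited and 0.25 after normalization. For the 26 members at or below that level the median half-width of the interval was 0.60 and 0.45. Differences smaller than about this size could go undetected there, and so could larger ones, since a call needs an adjusted p under 0.05. Over all tested probe sets as deposited, the log2 differences ran from -1.74 to 1.65, and 0 were called.

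WT and KO signals overlapped for all 95 members as deposited, where 0.454% of all tested probe sets did not overlap. After normalization the 2 genotypes did not overlap for 1 member (1.05%, against 1.49% of all), the Rps20 probe set 1450417_a_at. Its signals were 104, 79.9, 99.8 and 73 in WT and 65.8, 103, 86.3 and 73 in KO. As deposited these values interleave, and the normalized difference was -0.14 ± 0.14 (SE). The medians of the large subunit, the small subunit and the paralogs lay close together, and their differences were not tested. They were -0.019 for 40 large subunit probe sets, -0.017 for 47 of the small subunit and 0.053 for 8 of the paralogs as deposited, and 0.009, 0.015 and 0.051 after normalization.

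**Figure D2:**
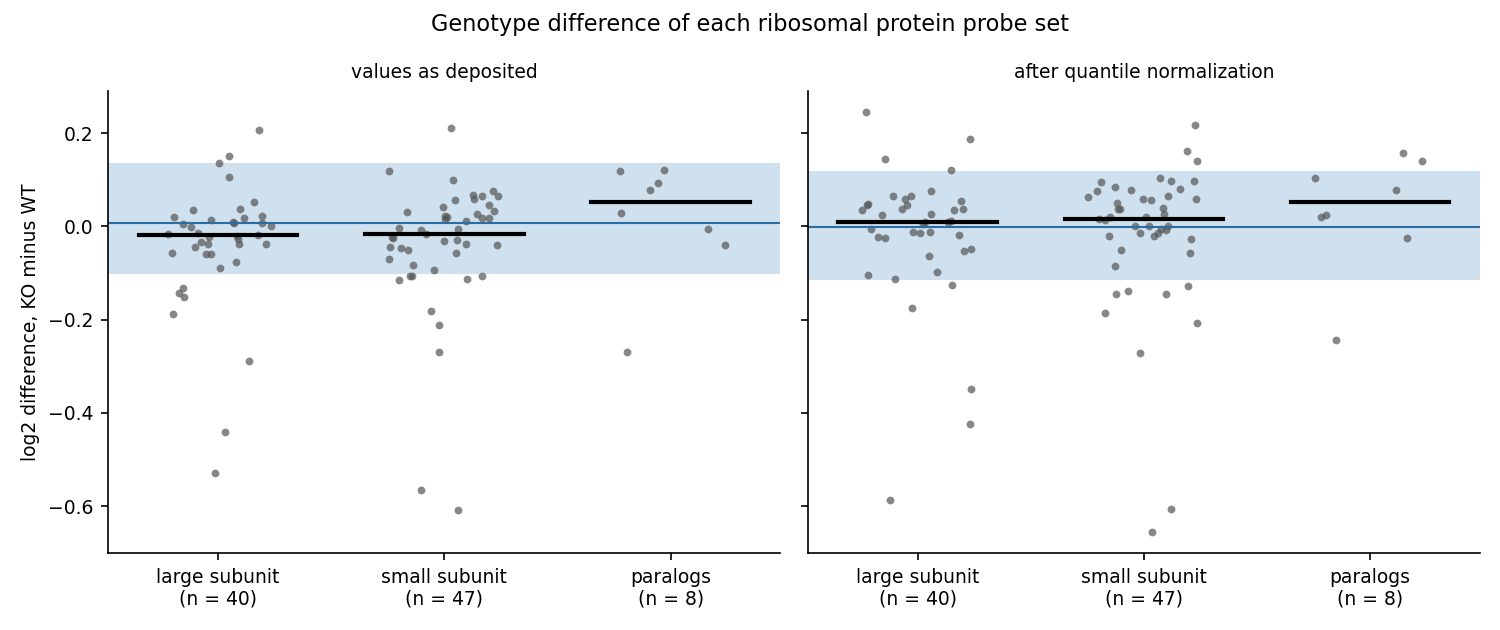
Each point is the log2 difference, KO minus WT, of 1 tested probe set, as deposited (left) and after quantile normalization (right). Black bars are class medians, the blue line is the median of all 16292 tested probe sets and the blue band their middle quartiles. Most members lie inside the band, and the few below -0.4 are Rps27, Rpsa (1416196_at), Rpl39 and Rpl22 (1448398_s_at).

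In the large subunit, the lowest unadjusted p among lower values as deposited belonged to Rpl39 and Rpl22. Rpl39 lines the exit tunnel of the ribosome. Its probe set (1423032_at) read 56.4, 42.3, 36 and 15.1 in WT and 6.64, 14.6, 67.9 and 11.1 in KO. KO 3 was the highest of all 8 hearts, the groups overlapped, and the log2 difference was -0.53 ± 0.31 (SE, 4 hearts a group, limma adjusted p = 0.99998). Rpl22 is an RNA-binding protein of the large subunit that cells can lose without losing viability. Its probe set 1448398_s_at read 718, 755, 823 and 709 in WT and 413, 645, 821 and 412 in KO. KO 3 lay inside the WT range and the other 3 KO hearts below it, with a log2 difference of -0.44 ± 0.28 as deposited and -0.42 ± 0.15 after normalization (limma unadjusted p = 0.0189, adjusted p = 0.999). A second Rpl22 probe set, 1416603_at, did not share this, with a WT mean of 4269 ± 402 and a KO mean of 4101 ± 843 (SD over 4 hearts each) and a log2 difference of -0.08 ± 0.19. The other member with an unadjusted p under 0.05 after normalization was Rpl13a (1455485_x_at), at -0.11 ± 0.05 (limma unadjusted p = 0.0442, adjusted p = 0.999). The other Rpl13a probe sets gave -0.02, 0.14 and 0.07 after normalization.

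Among higher values, Rplp0, the base of the stalk, came first. It read 2310, 2034, 3416 and 2509 in WT and 2412, 2503, 4474 and 2654 in KO. In both genotypes 1 heart with the title number 541 (WT 3, KO 3) was the highest, the groups overlapped, and the log2 difference was 0.21 ± 0.22 (limma adjusted p = 0.99998). Rplp2, an acidic stalk protein that sits on Rplp0, had a difference of 0.01 ± 0.18. Rpl8, which lies close to the peptidyl transferase centre, had a WT mean of 2482 ± 573, a KO mean of 2742 ± 551 (SD) and a difference of 0.15 ± 0.22. Rpl37 was represented by a single dim probe set (1438291_x_at) with a WT mean of 13.95 ± 2.75, a KO mean of 17.02 ± 4.26 (SD) and a difference of 0.14 ± 0.22. Rpl11, which as a free protein binds and restrains Mdm2, gave -0.04 ± 0.18. Rpl38, known in the mouse from the Tail short mutant and from translation of Hox mRNAs, gave -0.04 ± 0.17.

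In the small subunit, the only member with an unadjusted p under 0.05 as deposited was a dim probe set of Rpsa. Rpsa is a small subunit protein that is also known as a laminin receptor. The probe set 1416196_at was Present in 5 hearts and read 15.4, 60.3, 37.9 and 42 in WT and 28.6, 26.4, 11.1 and 14.6 in KO. WT 1 lay below KO 1 and KO 2, the groups overlapped, and the log2 difference was -0.56 ± 0.27 (limma unadjusted p = 0.0420, adjusted p = 0.99998). The other Rpsa probe set, 1448245_at, read 4108, 3865, 5103 and 3447 in WT and 3431, 4787, 5970 and 3966 in KO. There the difference was 0.12 ± 0.19, and the gap of 0.68 log2 units between both probe sets was the widest of any member gene. The probe sets of Rpl22 differed by 0.37 and the 6 tested of Rps18 by 0.33, the next widest gaps. In Rpsa, Rpl22 and Rps18 the lowest value came from a dimmer probe set and the highest from one with a mean signal above 1000.

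Rps27, a zinc finger protein of the small subunit, had the most negative value of all members. Its probe set read 29.4, 177, 33.8 and 79.1 in WT and 20.8, 24.9, 44.2 and 68.7 in KO. WT 2 alone was far above the KO range, and the difference was -0.61 ± 0.35 (limma adjusted p = 0.99998). Rps6, the small subunit protein phosphorylated by S6 kinases downstream of mTOR, read 562, 432, 680 and 380 in WT and 499, 715, 674 and 479 in KO on 1416142_at. These ranges overlapped almost fully, and the difference was 0.21 ± 0.28. Rps19, the gene most often mutated in human Diamond-Blackfan anaemia, had a WT mean of 4513 ± 548, a KO mean of 4740 ± 944 (SD) and a difference of 0.06 ± 0.18. Rps4x gave -0.04 ± 0.18 on the probe set Present in all hearts.

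Paralogs follow their parent genes, of which Rps27, Rpl22, Rpl39 and Rps4x are given above. Rps27l, which p53 is known to induce, had differences of 0.12 ± 0.26, 0.08 ± 0.24 and 0.12 ± 0.20 on its 3 probe sets. Its parent Rps27 gave -0.61 ± 0.35. Rpl22l1, the paralog of Rpl22, gave -0.01 ± 0.20. The paralog of Rpl7, Rpl7l1, gave 0.03 ± 0.30 and -0.04 ± 0.29, and the 3 probe sets of Rpl7 itself lay between -0.04 and 0.01. Rps4l, a paralog of Rps4x, gave 0.09 ± 0.32. The dim Rpl39l probe set gave -0.27 ± 0.22. None of the paralogs had an unadjusted p under 0.05 in this comparison, and their confidence intervals had a median half-width of 0.51 log2 units.

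**Figure D3:**
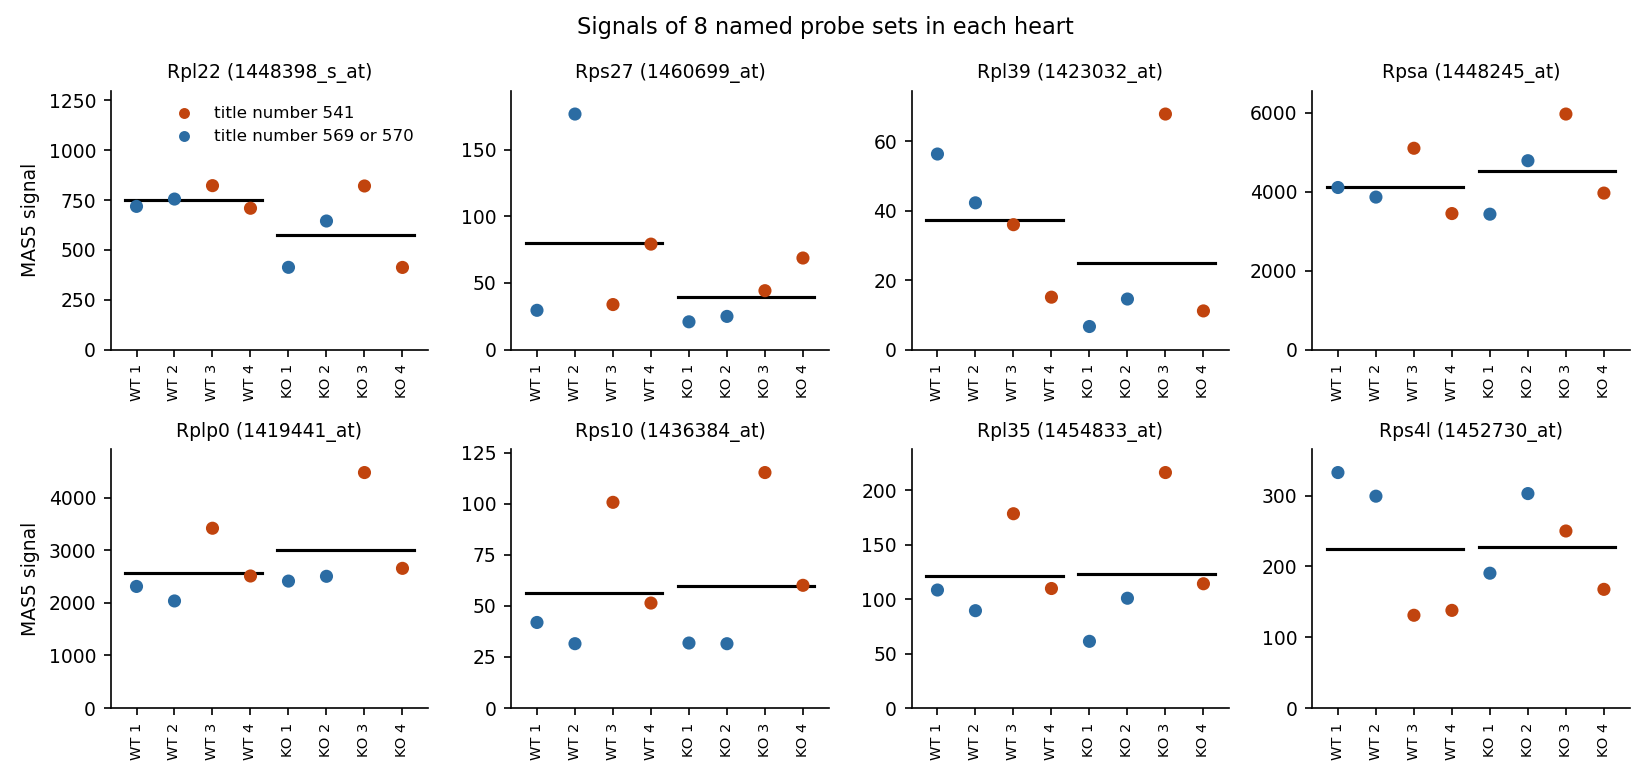
MAS5 signal on a linear axis in each of the 8 hearts for 8 named probe sets, with horizontal bars at the genotype means and colours for the title number. In the upper row the genotypes overlap, and in the lower row Rplp0, Rps10 and Rpl35 are higher in all hearts of title number 541 than in the other 4, while Rps4l is lower in WT 3, WT 4 and KO 4.

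The rest of the translation machinery showed 0 called genes between genotypes in each of the lists examined, where 0% of all probe sets were called. With 1 probe set per gene, the 47 member genes had a median log2 difference of -0.016, beside 0.020 over 9126 tested genes. Elongation factors and other TOP mRNAs (16 genes) had a median of -0.056, with 4 higher and 12 lower. In that list Btf3, part of the nascent polypeptide-associated complex, gave -0.20 ± 0.19, and Pabpc1, the poly(A)-binding protein, gave 0.15 ± 0.22. Fau, whose product holds a small subunit protein fused to a ubiquitin-like protein, gave -0.09 ± 0.18. Initiation factors (24 genes) had a median of 0.047, with Eif6, which keeps free large subunits from joining, at 0.30 ± 0.30 and Eif3a at -0.19 ± 0.20.

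The upstream steps of ribosome production lay as near to zero. Ribosome assembly and rRNA processing genes (44) had a median of 0.013, with 25 higher and 19 lower. Rrp9 and Imp4, both of the U3 small nucleolar ribonucleoprotein, gave 0.42 ± 0.26 and 0.38 ± 0.30. RNA polymerase I and its factors (13 genes) had a median of 0.009, with Ubtf, the upstream binding factor of rRNA genes, at -0.25 ± 0.22 and Taf1b at -0.34 ± 0.29. Growth control genes (15) had a median of 0.063, with Myc at -0.41 ± 0.30 and Mycn at -0.27 ± 0.25. After normalization the medians of the RNA polymerase I and growth control lists were -0.012 and 0.003. Mitochondrial ribosomal proteins, which belong to a separate ribosome, had a median of 0.051 over 74 genes, with 48 higher and 26 lower. Mrpl4 and Mrpl37 gave 0.38 ± 0.28 and 0.31 ± 0.30.

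Some members were called for the title number of the hearts. Hearts numbered 541 were compared with the other 4, with genotype as a covariate, since each set holds 2 hearts of each genotype. After quantile normalization 5 of 95 members were called, against 3.08% of all tested probe sets. All 5 were higher in the 541 hearts, where 1.66% of all were called higher and 1.41% lower. As deposited 1 of 95 was called, also higher, against 2.95% of all, with 1.83% higher and 1.12% lower. The share as deposited lies below the background and the normalized one little above it. The median log2 difference, 541 minus the others, was 0.11 after normalization, with 78 of 95 above zero, beside -0.010 over all tested probe sets, of which 48.5% were above zero. As deposited it was 0.068, with 74 above zero, beside -0.055 and 42.2%. Without KO 3 or without KO 1 the median as deposited turned to -0.060 and -0.010, and without WT 3 it was 0.006. After normalization it stayed between 0.071 and 0.120 whichever heart was left out.

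The call made on both scales was a dim probe set of Rps10, which encodes a core protein of the small subunit. The probe set 1436384_at read 101, 51.4, 115 and 60.1 in the 541 hearts and 41.9, 31.5, 31.8 and 31.5 in the others. The 2 sets did not overlap, with a log2 difference of 0.91 ± 0.28 as deposited (limma adjusted p = 0.0414) and 0.91 ± 0.17 after normalization (adjusted p = 0.0276). The SE and p as deposited follow the variance trend over all probe sets, not this probe set's own spread. As deposited the call was kept without WT 4 (adjusted p = 0.00550) and lost without any 1 of the other 7 hearts, with adjusted p from 0.0503 to 0.401. The 5 other Rps10 probe sets, all with mean signals above 1000, differed by 0.04 to 0.12 as deposited, so a difference of this size was seen at 1 of the 6 probe sets.

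Rplp0 had the lowest adjusted p after normalization. Its signals were 3416, 2509, 4474 and 2654 in the 541 hearts and 2310, 2034, 2412 and 2503 in the others. Each 541 heart was above each of the others, WT 4 by a narrow margin, and the log2 difference was 0.46 ± 0.22 as deposited (limma adjusted p = 0.382) and 0.58 ± 0.09 after normalization (adjusted p = 0.0193). The remaining calls after normalization were Rpl13a (1417608_a_at) at 0.28 ± 0.06, Rpl35 (1454833_at) at 0.70 ± 0.14 and Rpl37a (1416217_a_at) at 0.29 ± 0.06, with limma adjusted p of 0.0352, 0.0370 and 0.0424. As deposited their limma adjusted p were 0.891, 0.353 and 0.896. The other Rpl13a probe sets differed by 0.23, 0.12 and 0.03 after normalization and were not called. Another bright Rpl37a probe set, 1460543_x_at, differed by 0.08 after normalization and was not called. Rpl13a is also known as a component of the complex that silences inflammatory mRNAs in human and mouse monocytes, and Rpl35 and Rpl37a are core proteins of the large subunit. For Rpl35 the dim probe set read 178, 110, 216 and 114 in the 541 hearts and 108, 89.3, 61.2 and 101 in the others. The 5 brighter Rpl35 probe sets differed by 0.02 to 0.07 as deposited. Also among the smallest unadjusted p in their direction, but not called on either scale, were Rpl41 (1433530_at), Rpl37a (1416218_x_at) and Rps18 (1421837_at). They differed by 0.61 ± 0.30, 0.60 ± 0.28 and -0.28 ± 0.31 as deposited. After normalization they differed by 0.71 ± 0.20, 0.67 ± 0.33 and -0.23 ± 0.19. The other Rpl41 probe sets gave 0.02, 0.58 and -0.20 as deposited.

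The number of calls turned on single hearts. After normalization 28 of 95 members were called without WT 4, of which 27 were higher in the 541 hearts and 1 (Rps4l) was lower, when 18.5% of all tested probe sets were called. Without WT 3 the count was 1, when 134 of all 16292 tested probe sets were called. Without any 1 of the other 6 hearts it was 0, when 1 to 102 of all were called. Without overlap between the 541 hearts and the others were 3 members as deposited (3.16%, against 5.17% of all tested probe sets) and 23 after normalization (24.2%, against 13.5%). Of the 23, 22 were higher in the 541 hearts, and the exception was Rps4l.

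The paralogs had lower medians than the core members in this comparison. The 8 paralog probe sets had a median log2 difference of -0.19 as deposited and -0.065 after normalization, while the large subunit had 0.071 and 0.11 and the small subunit 0.068 and 0.11. Rps4l read 131, 138, 250 and 168 in the 541 hearts and 333, 299, 190 and 303 in the others. WT 3, WT 4 and KO 4 were the lowest hearts, KO 3 lay above KO 1 before normalization, and the log2 difference was -0.68 ± 0.31 (limma adjusted p = 0.343) and -0.60 ± 0.18 after normalization (adjusted p = 0.0895). The 8 include 3 probe sets of Rps27l, which gave -0.27 ± 0.26 (1423254_x_at), -0.23 ± 0.24 (1435429_x_at) and, on the brightest (1450925_a_at), -0.16 ± 0.21, while its parent Rps27 gave 0.22 ± 0.28. After normalization the 3 Rps27l values were -0.13, -0.10 and -0.03, and Rps27 gave 0.22 ± 0.49. The dim Rpl39l probe set gave -0.24 ± 0.22. The other 3 paralog probe sets had values above 0, namely Rpl22l1 at 0.09 ± 0.21 (0.19 after normalization) and Rpl7l1 at 0.09 ± 0.30 on 1426386_at and 0.15 ± 0.29 on 1452049_at (0.18 and 0.27 after normalization). None of the 8 was called on either scale. The difference between paralogs and core members was not tested.

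**Figure D4:**
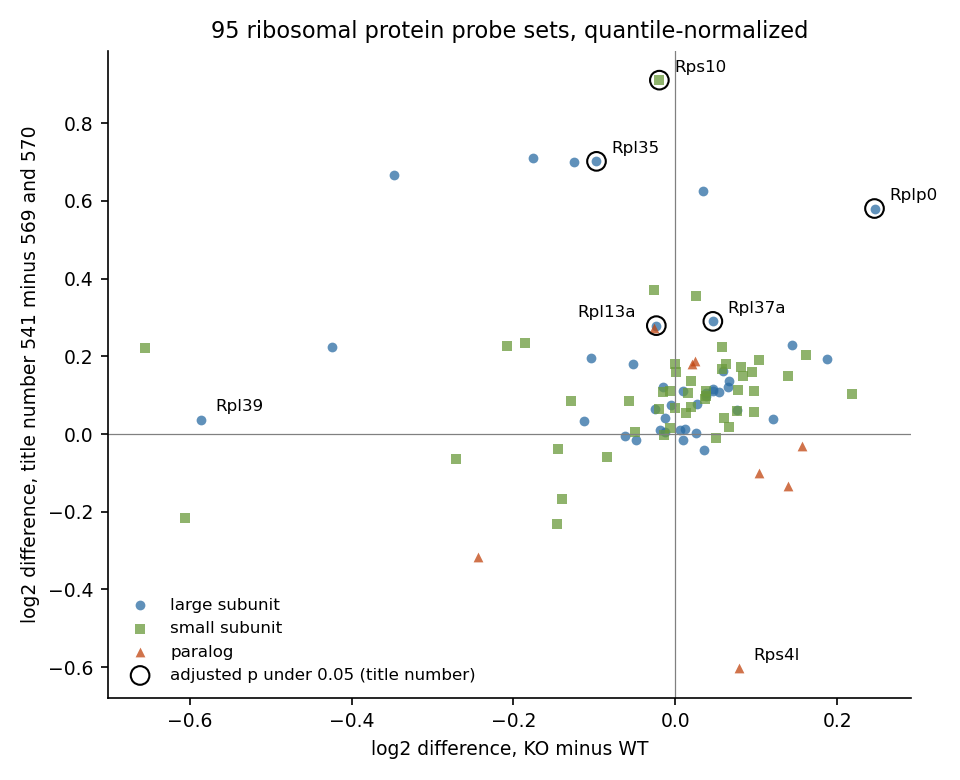
Each point is 1 of the 95 tested probe sets after quantile normalization, with the log2 difference between genotypes on the horizontal axis and that between title number 541 and the others on the vertical axis. Circles, squares and triangles mark the large subunit, the small subunit and the paralogs, and rings mark the 5 members called for the title number. Of the 95 points, 78 lie above zero on the vertical axis, while 54 lie above zero on the horizontal axis, and Rps4l is the lowest point.

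For the title number, the lists of other parts of the machinery had medians of both signs, and few or none of their genes were called. Of all 9126 tested genes, 310 were called after normalization and 4408 were higher in the 541 hearts, with a median of -0.011, and as deposited 3739 were higher, with a median of -0.064. After normalization the mitochondrial ribosomal proteins had a median of -0.107, with 19 of 74 higher in the 541 hearts, and as deposited -0.21, with 7 of 74 higher. The cytosolic and mitochondrial ribosomal proteins thus had medians of opposite sign on both scales, and 0 of the 74 mitochondrial genes were called. RNA polymerase I and its factors had a median of 0.22 after normalization, with 12 of 13 higher and 1 called, Taf1d, a subunit of the selectivity factor for rRNA genes (0.69, limma adjusted p = 0.0310). Ribosome assembly genes had a median of 0.15, with 33 of 44 higher and 2 called. In that list Gnl2 was called higher (0.55, limma adjusted p = 0.0440) and Nip7 lower (-0.58, adjusted p = 0.0295). Gas5, a TOP transcript that hosts small nucleolar RNAs, was higher by 0.35 (adjusted p = 0.0197). Taf1d, Gnl2, Nip7 and Gas5 are named because the test called them after normalization, after their values were seen. As deposited 0 genes were called in the lists of RNA polymerase I, ribosome assembly and TOP mRNAs. Of the 15 growth control genes, 1 was called higher as deposited (limma adjusted p = 0.0333) and 0 after normalization. Of all 9126 tested genes, 324 were called as deposited.

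**Figure D5:**
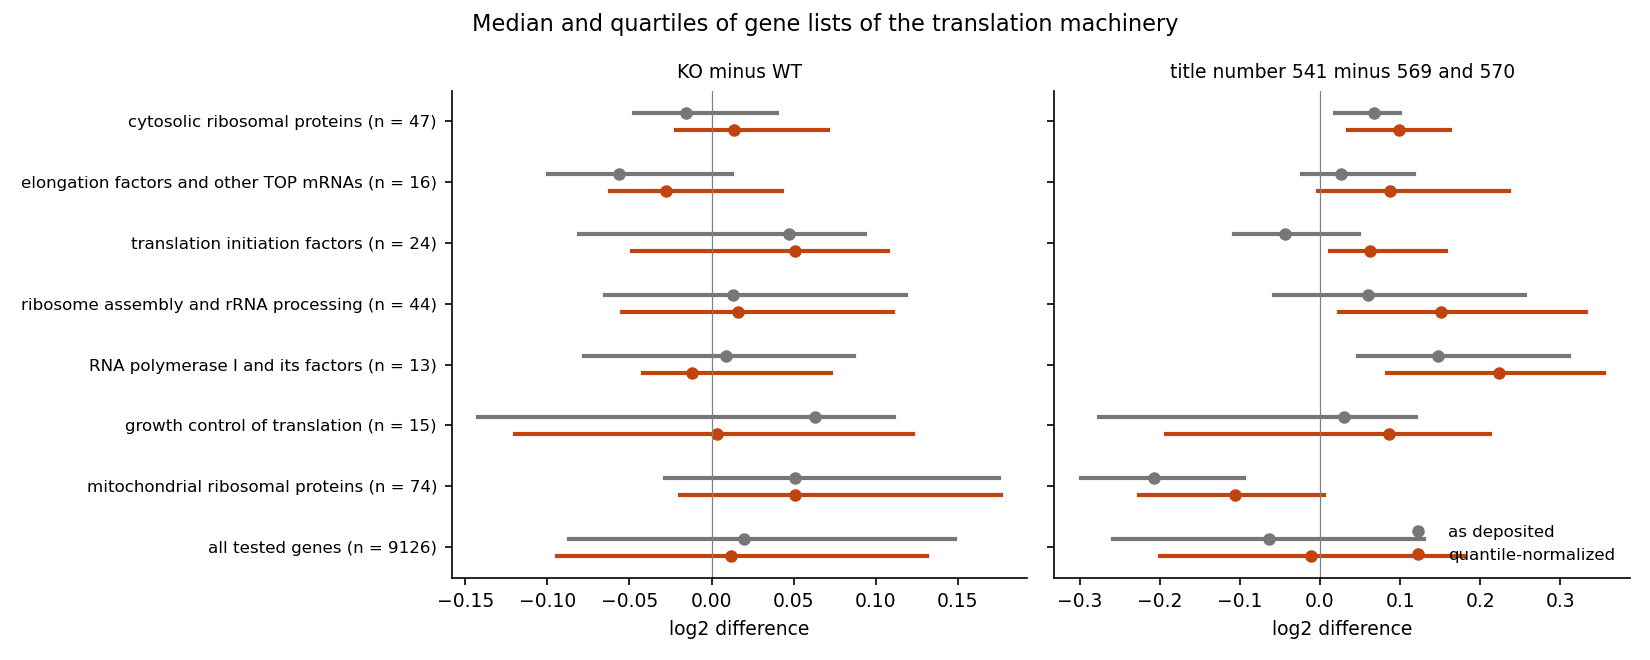
Dots are median log2 differences and bars the quartiles over the tested genes of each list, with 1 probe set per gene, for genotype (left) and title number (right), as deposited in grey and quantile-normalized in red. For genotype every median lies between -0.06 and 0.07, and for the title number the mitochondrial ribosomal proteins lie at -0.21 and -0.107 and the cytosolic ones at 0.068 and 0.099.

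Several other measures moved with some or all of the hearts in which the members were highest after normalization. WT 3, KO 3 and KO 4 had the lowest 5′ to 3′ signal ratios of the actin control, at 0.407, 0.390 and 0.401, against 0.483 to 0.527 in the other hearts, and of the Gapdh control, at 0.694, 0.686 and 0.702, against 0.724 to 0.775. These were the same hearts that carried the neuron and neural crest markers given earlier. Cardiomyocyte markers summed to 28133 in WT 3 and 29653 in KO 4. KO 3 did not share this, with 44912, and the remaining hearts had 45512 to 54802. All 12 were below zero in the 541 comparison, with a median of -0.56 after normalization and 2 called. Erythroid markers summed to 21142 to 33795 in the 541 hearts and to 14579 to 25616 in the others, with Hba-a1 Absent in all 8 hearts and 7 of 10 tested genes called higher after normalization. Their part in the ribosomal protein values was not tested.

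Whether the genotype difference itself differed between the 2 sets of hearts was tested as an interaction. That test called 0 of 95 members as deposited and after normalization, where it called 0.43% and 0.00614% of all tested probe sets. At an unadjusted p under 0.05 there were 3 members as deposited, where 3.31% of all tested probe sets had such a p, and 7 after normalization, against 7.09% of all, so both counts lay near the background. Within the 4 hearts numbered 541 the median genotype difference of the members was 0.008, beside 0.108 for all tested probe sets, and 0 members were called, against 0.368% of all. The hearts numbered 569 are 1 WT and 2 KO, and the fit there assumes that the lone WT heart varies like the others. The members had a median of 0.068 in these 3 hearts, beside 0.047 for all, with 0 called, against 0.0184% of all.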

How the data were processed

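RNA from single hearts, 8 in all, was measured on Affymetrix Mouse 430A 2.0 arrays (per the labels). Intensity values deposited by the authors are linear MAS5 signals, and a detection call accompanies each, per the file headers. The MAS5 version, scaling target and genome build are not given in the sources used here. For each probe set the authors deposited a signed fold score with WT as numerator and a p-value from a test on signals, per the file headers. From the deposited quality report come the fraction called Present and the 5′ to 3′ ratio of control transcripts, per the file headers.

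Gene symbols came from the platform annotation, in which 20393 have 1 symbol, 691 several and 1606 none. Signals were analysed as log2(signal + 16), without further normalization in the first instance, for the 16292 non-control probe sets Present in at least 3 arrays. Tests used limma 3.58.1 in R 4.3.3 (lmFit, eBayes with an intensity trend) with Benjamini-Hochberg adjustment over all of them, and a call is an adjusted p under 0.05. The contrasts were KO minus WT, and title number 541 minus 569 and 570 with genotype as covariate. For the title number as deposited, limma estimated infinite prior degrees of freedom. SE and p there follow the variance trend over all probe sets, not a probe set's own spread between hearts. The same held for the interaction, block and within-number fits as deposited. Values after ± are SE of log2 differences or SD of signals. Fold changes on this scale understate those of dim probe sets. The pipeline was tested on simulated data.

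Replicates within a genotype were numbered in accession order. The number of arrays limits the precision, and no label says which hearts share a litter. Named are the 5 members with the smallest p in each direction of each contrast, the 3 genes whose probe sets differ most, members not Present everywhere, the widest and narrowest 3, members with a known role and their paralogs, and 2 genes per further list. Members, lists and tests were chosen with earlier results of these data known. Alternatives were quantile normalization, median centring, pseudocounts of 1 and 64, other filters, the title number as a block, within-number fits, leaving out each heart, other variance models and other choices of probe sets.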

Additional observations from a re-analysis of the deposited data

Results flagged for a closer look

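Among 40 groups of 4 values examined for a heart far from the others, 1 stood out. Rplp0 (1419441_at) read 4474 in KO 3, while the other KO hearts read 2412, 2503 and 2654, and on the log2(signal + 16) scale the gap to the nearest heart was 0.845 of the whole range, above Dixon's 95% critical value. Chance flags about 1 in 20 such groups. In WT the highest Rplp0 signal was 3416, in WT 3, which also carries the title number 541. KO 3 had the highest member median as deposited, 0.31 log2 units above the mean over the hearts.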

How the results depend on the processing

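The genotype comparison called 0 of the tested members under every alternative run. Over all tested probe sets the same alternatives also called 0, except 72 without WT 3, 60 within title number 541, 40 with the title number block, 30 without KO 1, 3 within title number 569 and, of 13100 Present in all 8 hearts, 2. Its median log2 difference ranged from -0.127 to 0.069 when each heart was left out in turn, from -0.0036 to 0.049 when this was done after quantile normalization, and was -0.063 after median centring, beside -0.040 for all probe sets, so its sign depends on the scale and on single hearts. With the title number as a replicate block it was 0.036 as deposited and 0.013 after quantile normalization, with 0 members called in both. The labels do not say what this number means, and the replicate numbers used here pair no samples. Single probe sets changed sign in few settings. Within title number 541, Rps27 stood at 0.053 and Rpl39 at 0.25, and the Rpsa probe set 1448245_at ranged from -0.023 (without KO 3) to 0.243 when each heart was left out. In the title number comparison after quantile normalization without WT 4, the Rps27l probe sets stood at 0.014 and 0.050. The count of members called for the title number, 1 as deposited, was 5 after quantile normalization, 2 after median centring, 0 with no filter on detection calls (100 members tested) and 0 without the heart numbered 570. In the same order, 480, 501, 540, 155 (of 22626) and 286 of all tested probe sets were called. The count of members ranged from 0 to 1 when each heart was left out as deposited, and from 0 to 28 after quantile normalization, which was added after the data were seen. Over all tested probe sets these ranges were 130 to 776 and 1 to 3022. The cause was not tested. Signals of dim probe sets limit the precision for 26 of the 95 members.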

Other observations

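A further 102 probe sets carry several symbols of which at least 1 is a cytosolic ribosomal protein gene, and 101 of them were tested. They lie outside the members because the annotation gives them several symbols. Whether members with a single symbol also pick up related transcripts was not tested. Between genotypes 0 were called, with a median log2 difference of -0.017 as deposited and 0.011 after quantile normalization. In the title number comparison 3 were called as deposited and 6 after normalization, all higher in the hearts numbered 541, when 2.95% and 3.08% of all tested probe sets were called and 1.83% and 1.66% were called higher. The count as deposited is near the background. The medians were 0.037 and 0.043.

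The largest of these differences was at probe set 1415913_at, singled out after its values were seen. It read 1064, 453, 1116 and 392 in the hearts numbered 541 and 102, 184, 80.1 and 62.5 in the others. The 2 sets of hearts did not overlap, with a log2 difference of 2.59 as deposited (limma adjusted p = 9.86e-14) and 2.65 after quantile normalization (adjusted p = 0.0126). The p as deposited follows the variance trend over all probe sets, not this probe set's own spread. Both genotypes showed it, with 2 high and 2 low hearts each. Another probe set that shares a ribosomal protein symbol with it, 1438794_x_at, differed by 0.18 as deposited and 0.23 after normalization.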
